A study of Mus musculus with 5480 samples.

Results

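The genes described here are 10 members of the fibroblast growth factor (FGF) system: the ligands Fgf10, Fgf7, Fgf18 and Fgf2, the receptors Fgfr1, Fgfr2, Fgfr3 and Fgfr4, and the feedback inhibitors Spry1 and Spry2. They were taken by symbol, and all 10 were found among the 18072 genes of the deposited count table. Their reads were followed in 5480 single cells from the distal lung of 10 mice. They were sorted as mesenchyme, the supporting tissue of fibroblasts, smooth muscle and pericytes, except 69 from a CD31 sort and 2 from a CD45 sort. Groups held 1 female and 1 male mouse each: embryonic day 18.5 (E18.5) and postnatal days 1 (P1), 7 (P7) and 21 (P21), all labelled as normal treatment, and P7 after hyperoxia, which is breathing of oxygen-rich gas. The labels name neither the strain nor the oxygen level nor its duration. Single cells were made into libraries on plates with Tn5 transposase, no molecular identifiers are stated, and the 16 cell subtypes are those the submitters named from these same cells.

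FGFs are secreted proteins that bind receptor tyrosine kinases together with heparan sulfate and switch on the Ras and MAP kinase pathway inside the receiving cell. In the developing lung, FGF10 and FGF7 made by mesenchyme act on FGFR2 of the epithelium, while FGF18 and FGFR3 and FGFR4 have been tied to formation of alveoli. Sprouty proteins are induced by receptor signalling and dampen it. Because FGFR2 has splice forms with different ligand choice, and the table gives 1 count per gene, the forms were not resolved.

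Reads per cell ranged from 39358 to 5177020 with a median of 774305, and each mouse gave 311 to 633 cells and 294154721 to 671766116 reads. No sequencing run held both air and hyperoxia cells, except 1 small run with 9 cells of the male hyperoxia mouse. All 4 male air mice had their mesenchymal sort in a single run, the female mice of E18.5 and P1 had theirs together, and those of P7 and P21 had separate runs. A hyperoxia difference and a run difference therefore cannot be told apart, and only the step from E18.5 to P1 was sequenced within runs in both sexes. Marker lists set the named subtypes apart in part. The summed level of the 6 alveolar fibroblast markers, of which Fgfr4 is 1, was 25320 to 30343 CPM (read counts scaled to a common library size) in alveolar fibroblasts and 123 to 412 CPM in airway smooth muscle, in precursors of myofibroblasts and smooth muscle and in proliferating myofibroblasts. The adventitial and pericyte lists were also highest by median in the subtypes of their name, at 22246 and 8551 CPM. The muscle lists did not part the muscle subtypes: the airway list had a median of 7562 CPM in airway smooth muscle, 16388 in early airway smooth muscle and 21758 in vascular smooth muscle, and the myofibroblast list 8110 in myofibroblasts and 18033 in early airway smooth muscle. In the summed reads of a mouse, markers of other cells stood at 12.2 to 90.9 CPM for the epithelial list, 7.31 to 48.3 for the immune list 0.966 to 6.85 for the erythroid list and 0.0476 to 145 for the mesothelial list, which was highest in the hyperoxia mice. One early alveolar library, of the female E18.5 mouse, had 1031 CPM of epithelial markers. With 1 female and 1 male mouse per group, the tests of age and hyperoxia also fit sex, which takes out the steady difference between the sexes. Their p-values rest on the spread between mice that is left. It is pooled over all groups in a fit, also those not compared, and shared in part over genes.

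Promoter sequences are shown for the genes around which the results turn: Fgf10 and Fgfr3, whose levels were alike over the libraries of mice and subtypes, Fgf18, which moved with age, and Spry2, which was higher in hyperoxia. Each is the 250 bases before the start of the gene in RefSeq (GRCm38.p6), read 5′ to 3′ on the gene's strand. Such sequences were found for 9 of the 10 genes. Fgf10 lies on the + strand at chr13:118714449-118714698, Fgfr3 on the + strand at chr5:33721474-33721723, Fgf18 on the - strand at chr11:33147401-33147650 and Spry2 on the - strand at chr14:105896820-105897069. Capitals mark matches to the GC box searched.
Fgf10: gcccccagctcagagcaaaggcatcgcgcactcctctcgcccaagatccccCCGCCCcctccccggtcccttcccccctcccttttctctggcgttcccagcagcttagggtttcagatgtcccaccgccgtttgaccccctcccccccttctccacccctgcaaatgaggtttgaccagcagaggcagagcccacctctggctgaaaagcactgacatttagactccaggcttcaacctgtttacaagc
Fgfr3: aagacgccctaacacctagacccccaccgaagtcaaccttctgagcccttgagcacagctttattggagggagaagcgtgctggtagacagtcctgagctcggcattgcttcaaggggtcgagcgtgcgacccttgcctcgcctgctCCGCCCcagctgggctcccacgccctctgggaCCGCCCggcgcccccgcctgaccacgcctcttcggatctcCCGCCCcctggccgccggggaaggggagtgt
Fgf18: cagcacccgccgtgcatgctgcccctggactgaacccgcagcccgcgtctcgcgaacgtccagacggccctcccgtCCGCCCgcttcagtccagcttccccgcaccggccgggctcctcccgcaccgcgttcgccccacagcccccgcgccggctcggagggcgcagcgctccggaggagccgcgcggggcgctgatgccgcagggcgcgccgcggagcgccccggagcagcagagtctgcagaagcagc
Spry2: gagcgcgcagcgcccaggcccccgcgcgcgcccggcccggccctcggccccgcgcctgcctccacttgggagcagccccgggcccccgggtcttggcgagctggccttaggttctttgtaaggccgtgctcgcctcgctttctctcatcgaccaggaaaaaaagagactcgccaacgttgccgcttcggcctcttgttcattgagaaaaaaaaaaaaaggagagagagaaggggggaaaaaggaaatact

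Both strands were searched for 5 motifs: the ETS core CCGGAA, AP-1 (TGANTCA), the cyclic AMP response element TGACGTCA, the GC box GGGCGG and the TATA box TATAAA. Among 32851 promoters of the same length in the table these were held by 12.0%, 6.75%, 1.55%, 32.7% and 12.4%. The Fgf10 and Fgf18 windows held 1 GC box each, the Fgfr3 window 3, and the Spry2 window none of the 5 motifs. Fgfr3 has a second window in the table, chr5:33722056-33722305, with 2 GC boxes. Fgfr4 held 1 ETS core and 2 GC boxes. Bases G and C made up 77.2% of the Fgf18 window and 61.2% of the Fgf10 window, against a median of 52.4% over all promoters. These matches are letters in a window and say nothing of binding.

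The 4 ligands were read from different cells. Levels below are CPM of the summed reads of a mouse and subtype with at least 10 cells, as the lowest, median and highest over mice of all groups, and since the subtypes were named from these cells they are a description with no test. Fgf10, the branching signal of the lung bud, was read mainly in fibroblasts: 276 and 281 CPM in the fibroblast precursors of the 2 E18.5 mice, 154 and 163 in the alveolar fibroblasts of P21, and 32.9, 141 and 225 in early alveolar fibroblasts of 8 mice. In myofibroblasts its median was 0.0141 CPM and its highest value 2.78, and in vascular smooth muscle its median was 0. Airway smooth muscle differed, with 31.9 and 75.6 CPM at P21, beside 34.7 and 61.5 in the adventitial fibroblasts of the same age, and held up to 20.9% of the Fgf10 reads of a mouse. Alveolar-line cells (fibroblast precursors, early alveolar and alveolar fibroblasts) held 57.1% to 93.5% of all Fgf10 reads of a mouse, with a median of 85.1%.

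Fgf7, the close relative of Fgf10 known as keratinocyte growth factor, was spread more widely. It was read at 179 and 272 CPM in the airway smooth muscle of P21, at 165 and 226 in alveolar fibroblasts, and at 29.2, 54.5 and 76.7 in myofibroblasts. Pericytes, the cells that wrap capillaries, had a median of 0.496 CPM. One vascular smooth muscle library, of the female P21 mouse, reached 136 CPM, and 99.9% of those reads came from 1 of its 33 cells. Alveolar-line cells held 33% to 78.5% of the Fgf7 reads of a mouse and airway smooth muscle 2.37% to 38.6%.

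Fgf18, a ligand of the mesenchyme, was read mainly in airway smooth muscle and the myofibroblast line, with airway smooth muscle of P21 reading Fgf10 as well. Early airway smooth muscle had 148, 265 and 367 CPM, the precursors of myofibroblasts and smooth muscle at E18.5 had 143 and 211, and myofibroblasts had 38.4, 77.7 and 155. Early alveolar fibroblasts had a median of 0.0113 CPM and pericytes a median of 0. At E18.5 the myofibroblast line held 98.7% and 95.4% of the Fgf18 reads in the female and male mouse, and at P7 in normal air 34.5% and 58.9%, with 54.9% and 35.7% in airway smooth muscle. In the P21 mice airway smooth muscle held 87.6% and 63.4%. Of the male P21 reads, 34.0% came from 1 vascular smooth muscle cell.

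Fgf2, which lacks a classical secretion signal, was low in most subtypes. Its median lay between 2.08 CPM, in vascular smooth muscle, and 19.2, in airway smooth muscle, in the fibroblast and smooth muscle subtypes other than alveolar fibroblasts, with 45.2 and 119 CPM in the alveolar fibroblasts of the female and male P21 mice. At P21 alone the mean of vascular smooth muscle was 45.4 CPM, and its mice overlapped those of alveolar fibroblasts. In the male P21 mouse, 62.1% of the alveolar fibroblast reads of Fgf2 came from 1 of 69 cells, and in the female 16.5% came from its top cell. With every cell thinned to 100000 reads, 30.7% of female and 16.4% of male alveolar fibroblasts had a Fgf2 read. Fgf2 shares exon bases with Nudt6 on the opposite strand in the GENCODE M21 models, and whether the counts used strand is not given in the sources used here.

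**Figure D1:**
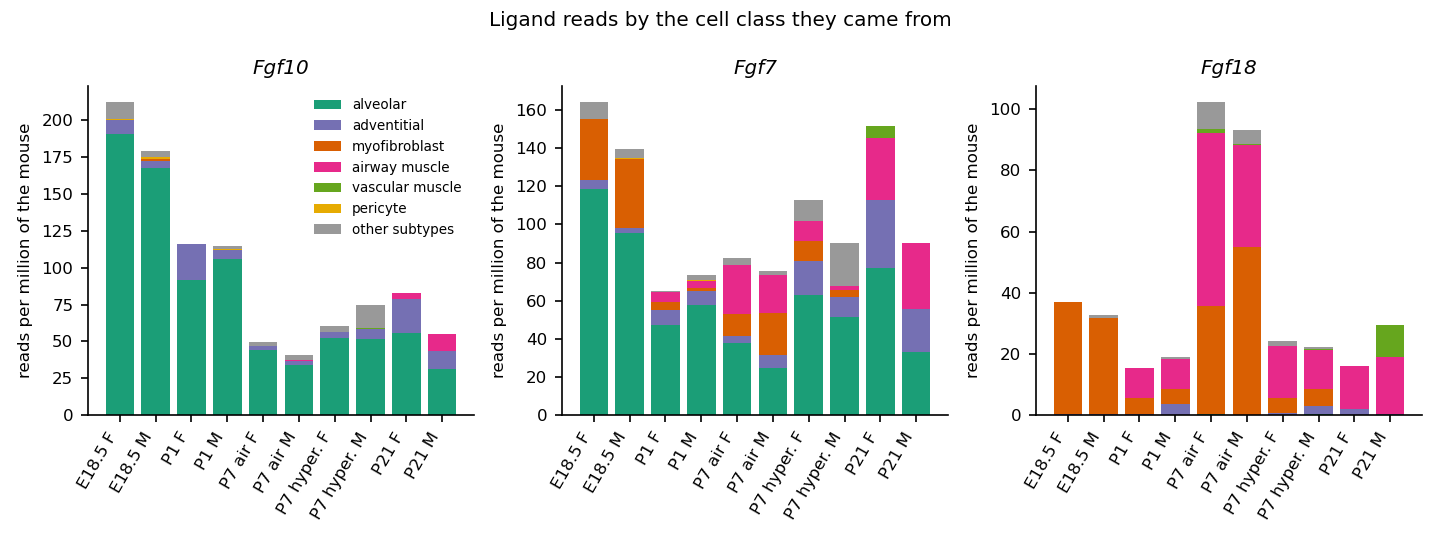
Plain CPM of Fgf10, Fgf7 and Fgf18 in each of the 10 mice (bars), divided by colour into the cell class they came from. Fgf10 reads came mostly from the alveolar line in every mouse (57.1% to 93.5%), and Fgf18 reads from the myofibroblast line at E18.5 and from the airway and myofibroblast lines at P7.

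The receptors also divided the cells. Fgfr3 had 298, 468 and 624 CPM in early alveolar fibroblasts and 452 and 611 in alveolar fibroblasts, against 25.2, 89.0 and 170 in early adventitial fibroblasts. In myofibroblasts of the P7 air mice its mean was 0.34 CPM. Fgfr4 followed with 128 and 151 CPM in fibroblast precursors and 73.5 and 158 in alveolar fibroblasts, and a median of 7.09 in myofibroblasts. Its early alveolar values ran from 0.0737 to 153 CPM. Alveolar-line cells held a median of 90% of Fgfr3 reads (65.2% to 95.7%) and 89.9% of Fgfr4 reads (67.6% to 97.2%) over the 10 mice. Pericytes held a median of 0.03% of the Fgfr4 reads of a mouse, but 32.4% at the highest. Their Fgfr4 level had a median of 2.52 CPM and reached 34.4.

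Fgfr1 was the broad receptor of the set. Adventitial fibroblasts, the cells around vessels and airways, had 291 and 354 CPM at P21, early adventitial fibroblasts 153, 190 and 264, early airway smooth muscle 73.4, 114 and 203, and myofibroblasts 48.1, 79.4 and 128. In P7 air its level was near 0 in pericytes, at a mean of 0.762 CPM. Fgfr2, the receptor for FGF10 and FGF7 in epithelium, had its highest levels in airway smooth muscle and its precursors: 85.3 and 112 CPM in airway smooth muscle, 79.3 and 81.8 in the E18.5 myofibroblast and smooth muscle precursors, and 2.36, 7.52 and 34.1 in early alveolar fibroblasts. Vascular smooth muscle had a median of 1.97, below early adventitial (20.4) and proliferating (31.6) fibroblasts. Airway smooth muscle held a median of 32% of the Fgfr2 reads of a mouse, the alveolar line 25.2% and the myofibroblast line 23%. Of the male P21 reads of Fgfr2, 51.2% came from 1 airway smooth muscle cell, so that mouse's level was 19.1 CPM with this cell and 9.41 without it. Exons of Fgfr2 overlap Ctbp2 on the same strand, so some reads could belong to either gene.

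The Sprouty genes were read in most cell classes. Spry1 had 499 and 562 CPM in P21 airway smooth muscle, 204 and 260 in the E18.5 precursors of myofibroblasts and smooth muscle and 11.5 and 13.3 in fibroblast precursors. Spry2 had 37.2, 82.0 and 172 CPM in pericytes and 16.4, 82.2 and 337 in vascular smooth muscle, against 2.24, 13.0 and 98.8 in early alveolar fibroblasts and 129 in the male hyperoxic fibroblasts of 1 mouse. Of the Spry1 reads of a mouse the myofibroblast line held a median of 33.7% and airway smooth muscle 20.6%. Of the Spry2 reads the adventitial line held 22.9%, the alveolar line 20.5%, the myofibroblast line 18.9%, pericytes 10.8% and vascular smooth muscle 5.69%.

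**Figure D2:**
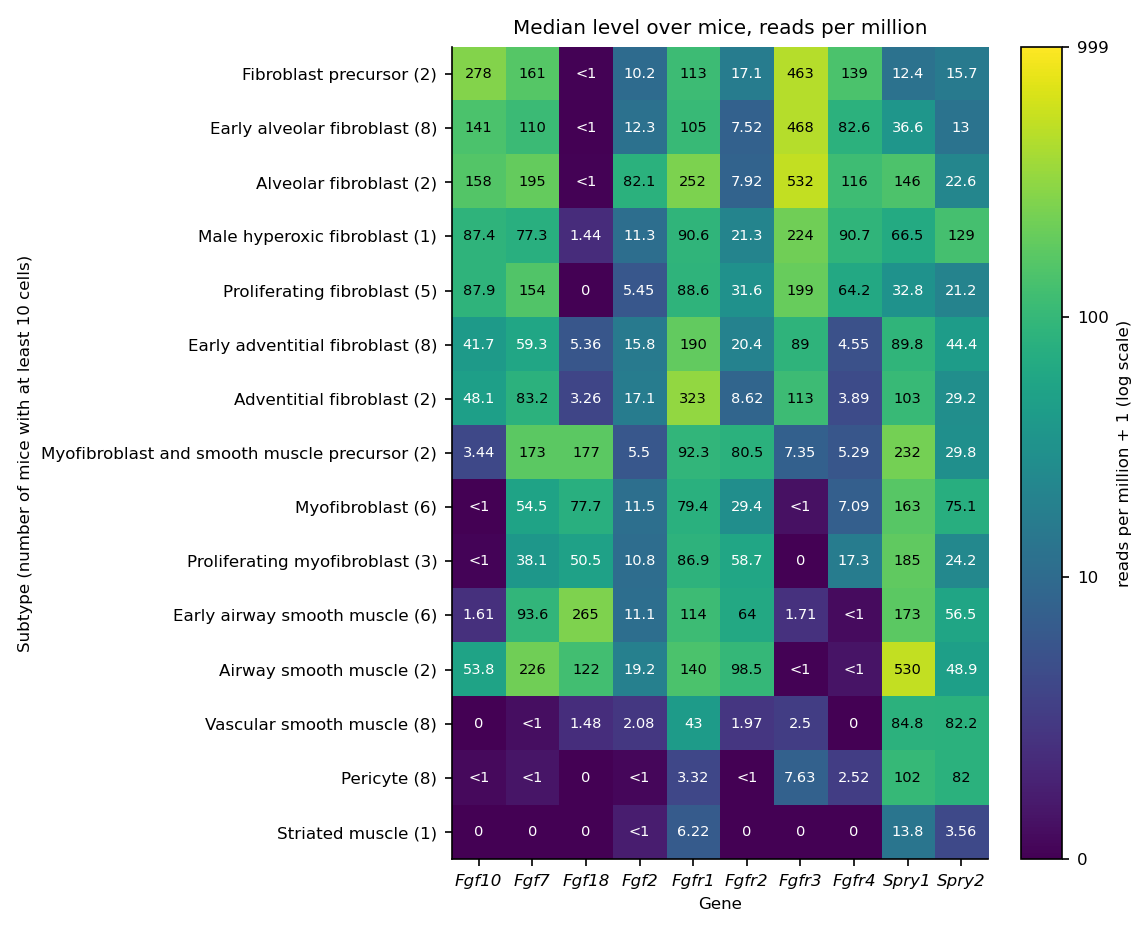
Median level over mice of each of the 10 genes (columns) in each subtype (rows, with the number of mice that had at least 10 cells), in CPM on a log colour scale. Fgf10, Fgfr3 and Fgfr4 are high in the alveolar rows and Fgf18, Fgfr2 and Spry1 in the airway muscle rows: medians for Fgf18 were 265 CPM in early airway smooth muscle and 0.0113 in early alveolar fibroblasts.

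The order of subtypes could be read most fully at P7 in normal air, where the female and male mouse gave a level each. Fgf10 stood at a mean of 139 CPM in early alveolar fibroblasts, above 27.3 in early adventitial fibroblasts and 5.05 in early airway smooth muscle, and the mice of these neighbours did not overlap. For Fgf18, early airway smooth muscle (343 CPM) stood above myofibroblasts (147), which overlapped proliferating myofibroblasts (97.3). Fgf7 ran from 179 CPM in early airway smooth muscle to 110 in early alveolar fibroblasts and 54.5 in myofibroblasts without overlap, and myofibroblasts overlapped early adventitial fibroblasts (52.1). Fgfr1 did not separate early adventitial fibroblasts (216), early airway smooth muscle (178) and early alveolar fibroblasts (171). For Fgf2 the 3 highest, early adventitial (19.0), early alveolar (15.3) and myofibroblasts (11.7), overlapped. Fgfr3 had 369 CPM in early alveolar and 109 in early adventitial fibroblasts, without overlap. Fgfr4 had 102 CPM in early alveolar fibroblasts, above 9.63 in proliferating myofibroblasts, and the next in order overlapped. For Fgfr2 proliferating myofibroblasts (62.1), early airway smooth muscle (51.4) and myofibroblasts (30.9) overlapped as neighbours, above early alveolar fibroblasts (16.1). Spry1 stood at 181 CPM in proliferating myofibroblasts, 173 in early airway smooth muscle and 156 in myofibroblasts, with overlap of the last pair, and at 24.6 in early alveolar fibroblasts. Pericytes were apart for Spry2 at 84.1 CPM, above 19.2 in proliferating myofibroblasts and 5.78 in early alveolar fibroblasts.

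Levels of different genes were compared per kilobase of exon, since longer transcripts give more reads. In early alveolar fibroblasts the medians were 65.4 CPM per kilobase for Fgfr3, 33.8 for Fgf7, 30.7 for Fgf10, 23.3 for Fgfr4 and 10.6 for Fgfr1, with 1.81 for Fgf2 and 0.729 for Fgfr2. Early airway smooth muscle had 224 for Fgf18, 28.8 for Fgf7, 11.6 for Fgfr1 and 6.20 for Fgfr2, and only 0.239 for Fgfr3 and 0.061 for Fgfr4. Alveolar fibroblasts thus held ligands and receptors together, and so did airway muscle, with other members. Within single cells thinned to 100000 reads, a median of 29.0% of early alveolar fibroblasts had a read of both Fgf10 and Fgfr4, against 23.3% if the reads fell in cells unrelated to each other. For Fgf10 and Fgf7 it was 21.9% against 17.8%. In early airway smooth muscle Fgf18 and Fgfr1 were read together in 51.7% of cells against 50.4%, and Fgf18 and Fgfr2 in 37.1% against 35.4%. These shares are a description, and the pairs were not tested.

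Likeness of pattern was measured as Pearson's r of log2(CPM + 1) over the 64 libraries of a mouse and subtype, which share cells' depth and mice, and it is given as a description. Among the members, Fgf10 and Fgfr3 were most alike (r = 0.86), followed by Fgfr3 and Fgfr4 (0.69) and Fgf18 and Fgfr2 (0.66), while Fgf18 and Fgfr3 ran opposite (-0.64). Outside the set, 6030408B16Rik was nearest to both Fgf10 (0.88) and Fgfr3 (0.92), and Slc38a5 was among the 3 nearest of each (0.86 and 0.89). For Fgf18 the nearest were Met, Trim67 and Tgfbi (0.88, 0.86 and 0.86), and for Fgf7 Tmem132c, Hhip and Lpar1 (0.85, 0.85 and 0.84). Fgfr1 was nearest to Mir99ahg (0.84) and Loxl1 (0.83), Fgfr4 to Ppp4r4 (0.80), Fgfr2 to Igf1 (0.73), Fgf2 to Igfbp3 (0.72), Spry1 to Ccdc3 (0.74) and Spry2 to Lrrc8a (0.82). The names depend on the measure: by Spearman's rho none of the 3 genes of Fgf18 and 1 of the 3 of Fgf7 (Hhip) stayed among the nearest 3, and Tmem132c had a rho of 0.42.

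The age comparisons asked how the genes change from late gestation through formation of alveoli. They were tested with edgeR's quasi-likelihood test on reads summed per mouse, with Benjamini-Hochberg adjustment over all genes of a comparison and a threshold of 0.05. Over all cells, 8 of the 10 genes differed between ages (12.8% of all genes tested did). Values for mice are CPM scaled by TMM, which corrects for library make-up, and are given as female and male. Since all cells of a mouse are summed, a change can come from more cells of a type or from more RNA per cell.

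Fgf10 differed between ages and was lowest at P7. E18.5 mice had 206 and 171 CPM, P1 mice 114 and 120, P7 mice 47.7 and 39.5, and P21 mice 89.7 and 64.4. Each age's pair lay apart from the next. The adjusted p over ages was 0.00296 (edgeR), and the P1 to P7 step alone was -1.43 on the log2 scale (SE 0.262) with an adjusted p of 0.063. In alveolar-line cells alone the values were 262 and 250, then 159 and 160, 125 and 150, and 181 and 202 CPM. The low at P7 was thus shallower there. The E18.5 cells of this line are mostly fibroblast precursors (425 and 335), with 14 and 24 early alveolar fibroblasts. Age and named subtype therefore cannot be told apart from E18.5 to P1, nor from P7 to P21. Within early alveolar fibroblasts the mean in plain CPM was 129 at E18.5 and 159 at P1. The alveolar line made up 57.7% and 69.1% of cells at P1 and 36% and 25.8% at P7. A calculation added after the values were seen set 5 subtypes to their P7 air shares. Plain CPM of Fgf10 was then 70.0 and 61.2 at P1 and 50.8 and 57.0 at P7. As sampled in these subtypes it was 125 and 121 at P1 and 57.7 and 49.0 at P7. The ages lay closer together at equal make-up, and the part of make-up in the step was not tested.

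Fgf18 peaked at P7. Levels were 36.0 and 31.2 CPM in E18.5 mice, 15.1 and 20.0 in P1, 98.8 and 90.1 in P7, and 17.4 and 34.2 in P21 mice. Both P7 mice were above every other mouse. In edgeR's test 1 of 10 genes passed from P1 to P7 over all cells, against 0.22% of all genes: Fgf18 rose by 2.44 on the log2 scale (SE 0.356, adjusted p = 0.0414). It then fell by 1.91 to P21 (SE 0.351, adjusted p = 0.00964). The P1 to P7 call was lost in 8 of 10 runs that left out 1 mouse (all but the 2 P21 mice; log2 change 2.24 to 2.63, adjusted p 0.00858 to 0.373), and the P7 to P21 call without the female (0.0686) or the male (0.0559) P7 mouse.

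The subtypes that read Fgf18 were also more numerous at P7. The myofibroblast line was 7.27% and 6.84% of cells at P1 and 25.7% and 32.3% at P7, and airway smooth muscle 6% and 4.04%, then 12.4% and 11.2%. Within the myofibroblast line Fgf18 stood at 76.8 and 78.2 CPM at P1 and 145 and 156 at P7, and within airway smooth muscle at 138 and 212, then 337 and 305. Neither single-class step passed the test. At the same equal make-up plain CPM was 46.6 and 59.0 at P1 and 101 and 96.7 at P7, against 14.9 and 17.7 and 96.6 and 102 as sampled. The P7 mice lay above the P1 mice both ways, by less at equal make-up. What part make-up had in the rise was not tested.

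Fgf7 had 160 and 133 CPM in E18.5 mice, 63.9 and 77.0 in P1, 79.4 and 73.0 in P7 and 165 and 105 in P21 mice, with the earliest and latest ages above the ages between. It differed over ages (edgeR, adjusted p = 0.0403), a call lost in 8 of 10 runs without 1 mouse. In the myofibroblast line it went from 185 and 159 CPM in E18.5 mice to 57.3 and 27.5 in P1 mice, a step of -2.08 with an adjusted p of 0.0672. The E18.5 cells of that line are precursors of myofibroblasts and smooth muscle (101 and 123 cells) with 0 and 7 myofibroblasts, so age and named subtype cannot be told apart in this step. In airway smooth muscle it was 77.0 and 77.6 at P1, 155 and 180 at P7 and 315 and 257 at P21.

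From P7 to P21, 3 of 10 genes passed over all cells (9.97% of all genes did): Fgf18, above, and 2 that rose. Fgf2 was 10.5 and 11.6 CPM at P7 and 26.7 and 48.9 at P21 (log2 change 1.76, SE 0.414, adjusted p = 0.0266 in edgeR). In plain CPM the male P21 mouse had 42.0 with, and 27.0 without, the 1 alveolar fibroblast that held 35.7% of its Fgf2 reads, and the female had 24.6 and, without its top cell, 22.1. The call was lost without that male (adjusted p 0.1) or without the female (0.117) or male (0.184) P7 mouse. Spry1 was 108 and 98.5 CPM at P7 and 214 and 182 at P21, with no overlap (log2 change 0.94, SE 0.259, adjusted p = 0.0479). Its call was lost in 9 of 10 runs without 1 mouse, where the adjusted p was 0.0332 to 0.283, and its test over all ages (0.00461) in none.

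Fgfr1 reached 253 and 207 CPM at P21 from 98.1 and 108 in E18.5 mice, 110 and 118 in P1 and 131 and 119 in P7 mice. Its P7 to P21 step was 0.88 with an adjusted p of 0.0522, and its difference over ages had 0.0282. Fgfr3 stood at 304 and 328, then 294 and 394, 144 and 87.3, and 263 and 164 CPM, lowest at P7 as Fgf10 was (adjusted p over ages 0.0314). In alveolar-line cells Fgfr3 was 355 CPM or more in every mouse. At equal make-up it was 192 and 202 plain CPM at P1 and 156 and 135 at P7, against 328 and 400 and 176 and 117 as sampled. Leaving out 1 mouse ended the age call of Fgfr1 in 7 and of Fgfr3 in 5 of 10 runs.

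Fgfr2, at 13.3 to 33.5 CPM, and Fgfr4, at 21.1 to 94.4 CPM over the 8 mice in air, did not pass over ages (adjusted p 0.221 and 0.173). Spry2 was 19.1 and 22.6 CPM in E18.5 mice, 34.4 and 60.6 in P1, 12.1 and 20.5 in P7, and 19.3 and 56.4 in P21 mice, and differed over ages with an adjusted p of 0.0468, which was lost in 7 of 10 runs without 1 mouse. From P1 to P7 its level was lower in 6 of 6 single classes, without overlap of mice in 5. These classes are cells of the same mice, so they are no separate replicates. Spry2 passed in none of them in edgeR's test (adjusted p 0.129 or more). From E18.5 to P1 over all cells 0 of 10 genes passed, against 1.23% of all genes; 5 had an unadjusted p under 0.05 in edgeR's test, where 12.2% of all genes did. These were Fgf10, Fgf7, Fgf18 and Fgfr2, which were lower at P1, and Spry2, which was higher. DESeq2 called 1 of the 10, and 1167 of all 17283 genes.

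**Figure D3:**
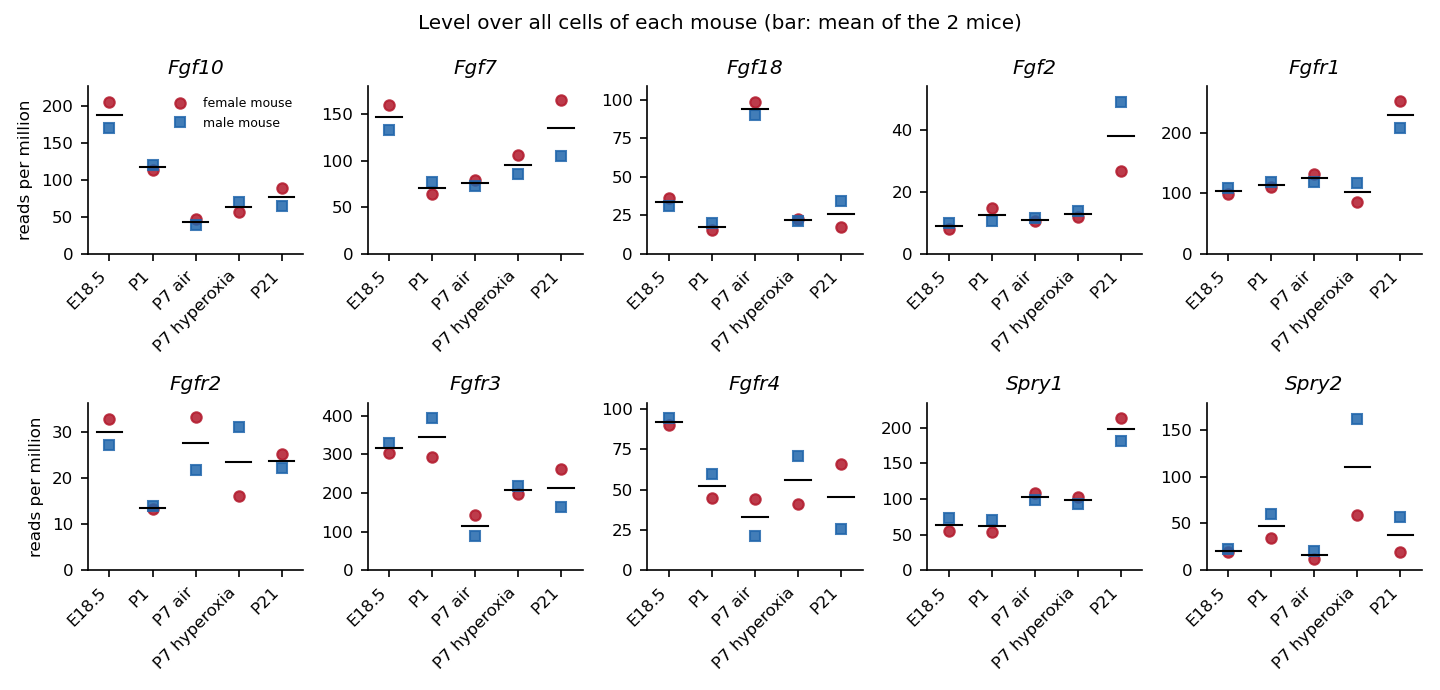
TMM-scaled CPM of each gene over all cells of a mouse (y axis, from 0) for the 5 groups (x axis), with a circle for the female and a square for the male mouse and a line at their mean. Fgf18 lies at 98.8 and 90.1 CPM at P7 in air, above all other mice, and Spry2 at 58.7 and 162 CPM in P7 hyperoxia.

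Within single classes fewer genes passed. In the alveolar line 3 of 10 differed over ages (3.34% of genes): Fgf2, Fgfr1 and Spry1 (edgeR, adjusted p 0.0379, 0.0295 and 0.0307). Alveolar Spry1 was 12.9 and 10.4 CPM in E18.5 mice, 26.8 and 38.5 in P1, 40.1 and 7.44 in P7 and 217 and 126 in P21 mice, far higher in the oldest pair. Alveolar Fgf2 was 10.1 and 8.45, 14.4 and 11.8, 7.59 and 23.0, then 50.2 and 154, and Fgfr1 97.9 and 110, 100 and 110, 134 and 205, then 257 and 354. All 3 calls were lost when fibroblast precursors were left out of the line, and in 8 or 9 of 10 runs without 1 mouse. The P21 cells of this line are alveolar fibroblasts and those of P7 early alveolar fibroblasts, so age and named subtype cannot be told apart. Between neighbouring ages 0 of 10 passed in the line: E18.5 to P1 (0.125% of genes), P1 to P7 (0% of genes) and P7 to P21 (3.28%), where Spry1 was closest (log2 change 2.96, adjusted p = 0.0513). Unadjusted p-values under 0.05 were 3, 2 and 5 in these steps, against 5.88%, 5.90% and 20.5% of all genes, and DESeq2 called 5 in the last, beside 2873 of all 16028 genes.

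In adventitial fibroblasts 0 of 10 genes passed from E18.5 to P1 (0.17% of genes), from P1 to P7 (0%), from P7 to P21 (0.124%) or over ages (1.1%). In myofibroblasts, which had too few cells at P21, it was 0 from E18.5 to P1 (1.44%), 0 from P1 to P7 (0.0772%) and 0 over ages (1.72%). Airway smooth muscle, with too few cells at E18.5, gave 0 from P1 to P7 (0%), 0 from P7 to P21 (1.13%) and 0 over ages (1.33%). Spry1 there was 156 and 168 CPM at P7 and 652 and 577 at P21, a step of 1.92 with an adjusted p of 0.08. In vascular smooth muscle 0 of 9 tested genes passed from P1 to P7 (0%), P7 to P21 (0.0886%) or over ages (0.0644%), and in pericytes 0 of 8 from E18.5 to P1 (0.042%), P1 to P7 (0%), P7 to P21 (0.0504%) or over ages (0.126%). In these 5 classes 1 to 6 genes per comparison had an unadjusted p under 0.05 in edgeR's test. Of all genes 3.73% (vascular smooth muscle, P1 to P7) to 17.8% (myofibroblasts, E18.5 to P1) did. The most were in myofibroblasts over ages (6 of 10, against 16.1% of all genes there). DESeq2 called at most 5 (myofibroblasts, E18.5 to P1, beside 2158 of all 14240 genes).

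Hyperoxia and air were compared in the P7 mice. Over all cells 1 of 10 genes passed, against 0.243% of all genes: Spry2. It was 12.1 and 20.5 CPM in air and 58.7 and 162 in hyperoxia, and these pairs did not overlap. The log2 change was 2.65 (SE 0.364, adjusted p = 0.0254 in edgeR). The call was lost without any 1 of the 4 mice (adjusted p 0.0645 to 0.442, log2 change 2.31 to 2.94) and without sex in the model (0.0805).

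The higher Spry2 level was seen in each cell class tested. In the alveolar line it was 6.54 and 4.80 CPM in air and 25.5 and 86.1 in hyperoxia, in the adventitial line 18.5 and 19.0 against 60.8 and 224, and in airway smooth muscle 13.4 and 15.7 against 51.0 and 145. Vascular smooth muscle had 15.8 and 19.5 against 131 and 302. In myofibroblasts it was 11.1 and 21.7 against 93.2 and 244. The pairs did not overlap in 5 of 5 classes, with log2 changes of 2.52 to 3.46. These classes are cells of the same mice and runs, so they are no separate replicates. How many of all genes lacked overlap was not counted. Only the myofibroblast step passed (3.29, SE 0.408, adjusted p = 0.0424 in edgeR), the 1 of 10 genes there against 0.0492% of all genes. That call was lost in 6 of 8 runs without 1 mouse (log2 change 3.07 to 3.48). It was also lost in edgeR with the cells of the main sort and run alone (adjusted p 0.0506) and with the male hyperoxia mouse by its first plate alone (0.0515). The same held for the subtype Myofibroblast alone (0.175) and for no sex term (0.113). In the alveolar line 0 of 10 passed (0% of genes), as in the adventitial line (0 of 10, 0%), airway smooth muscle (0 of 10, 0%) and vascular smooth muscle (0 of 9, 0%), where no gene of the whole table passed either; their Spry2 p-values were adjusted to 0.57, 0.347, 1 and 1. In these 4 classes 2, 2, 2 and 1 genes had an unadjusted p under 0.05 in edgeR's test, against 7.74%, 8.01%, 3.10% and 2.57% of all genes. DESeq2 called 1 in each, beside 464, 387, 130 and 215 of all genes.

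The share of cells with a Spry2 read moved as the level did. At 100000 reads per cell, 21.1% and 29.8% of myofibroblasts had one in air and 82.8% and 91.1% in hyperoxia, and 26.5% and 28.3% against 80.2% and 89.7% of early adventitial fibroblasts. Early alveolar fibroblasts gave 17.6% and 12.3% against 44.5% and 56.0%, and early airway smooth muscle 24.0% and 31.7% against 57.9% and 66.7%. The 95% Wilson intervals, which cover counting error only, ran from 23.5% to 36.9% for the male air myofibroblasts and from 79.3% to 96.5% for the male hyperoxia ones. Without thinning, those shares were 47.3% and 95.6%. In both mice the cells with a read were the minority in air and the majority in hyperoxia, except for the female early alveolar fibroblasts.

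Other values moved with hyperoxia and run. At 100000 reads the median cell had 2441 and 2340 genes in air and 3800 and 4515 in hyperoxia, more than in any other mouse (1527 to 3168). Endothelial markers summed to 1.29 and 3.58 CPM in air and 7.69 and 24.0 in hyperoxia, and mesothelial markers to 19.1 and 0.379 against 126 and 145. The part of these in the Spry2 difference was not tested. One small run held CD31-sorted cells of both male P7 mice. There Spry2 was 154 CPM in 14 air cells, 9 of them with a read, and 138 CPM in 9 hyperoxia cells, all with a read. Of the air cells 7 were early alveolar fibroblasts and 3 vascular smooth muscle, and of the hyperoxia cells 7 were early adventitial fibroblasts. With cells so few and of unlike subtypes, hyperoxia and subtype cannot be told apart there, and the difference was not tested. In the male air mouse, early alveolar fibroblasts of that run had 166 CPM (7 cells) and those of the main run 2.52 (140 cells). In the male hyperoxia mouse, early adventitial fibroblasts had 160 CPM (7 cells) and 245 (109 cells). Against the mesenchymal sort of their own mouse, CD31-sorted cells had a higher Spry2 level in 5 of the 6 mice with 4 or more such cells, such as 92.8 against 17.1 CPM in the female P21 mouse (6 cells) and 109 against 61.9 in the female hyperoxia mouse (11 cells). Sort, run and the subtypes held differ between these cells and the rest. Between the plates of the mesenchymal sort, Spry2 was 154 and 192 CPM in the male and 62.7 and 61.0 in the female hyperoxia mouse. In air at P7 the plates had 20.6 and 20.1 CPM in the male and 15.4 and 9.58 in the female mouse. The female P1 mouse had 43.6 and 24.2.

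**Figure D4:**
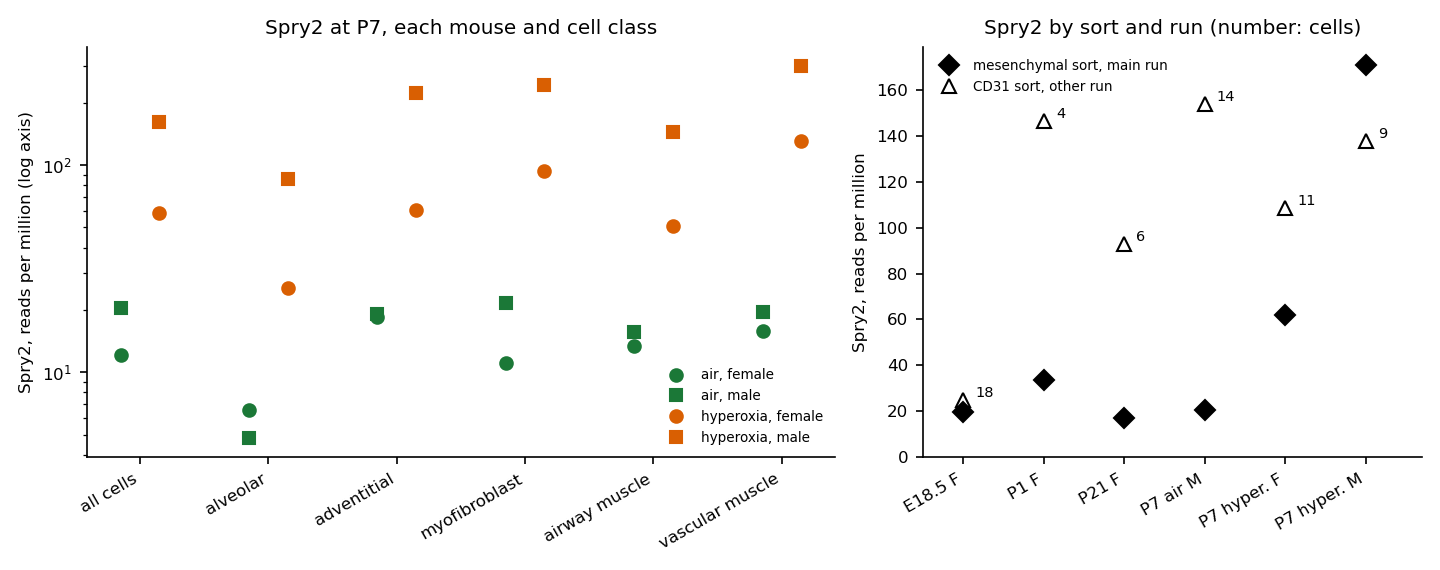
Left, Spry2 in TMM-scaled CPM (log axis) over all cells and in 5 cell classes of the P7 mice, 1 point per mouse; right, Spry2 in plain CPM in the mesenchymal sort of the main run and in CD31-sorted cells of 6 mice, with the number of CD31-sorted cells. Hyperoxia points lie above air points in each class on the left. The CD31-sorted cells of the male P7 mice, which are of unlike subtypes, lie at 154 CPM in air and 138 in hyperoxia.

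Fgf18 had the opposite direction over all cells, 98.8 and 90.1 CPM in air and 22.8 and 21.0 in hyperoxia, with no overlap. The log2 change of -2.11 (SE 0.351) had an adjusted p of 0.0518 and so did not pass. The cells that read it were fewer in hyperoxia: the myofibroblast line was 25.7% and 32.3% of cells in air and 11.6% and 8.35% in hyperoxia, and airway smooth muscle 12.4% and 11.2% against 11.4% and 3.99%. Within myofibroblasts Fgf18 was 145 and 156 against 36.2 and 56.7 CPM (log2 change -1.70, adjusted p = 0.212), and within airway smooth muscle 337 and 305 against 148 and 319, where the pairs overlapped. At the P7 air make-up, plain CPM was 101 and 96.7 in air and 36.6 and 67.8 in hyperoxia. Spry2 at that make-up was 11.1 and 14.2 against 67.2 and 189.

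Of the remaining members, Fgfr3 was 144 and 87.3 CPM in air and 198 and 219 in hyperoxia over all cells (log2 change 0.87, adjusted p = 0.32). In adventitial fibroblasts it ran the other way, 136 and 81.4 against 40.9 and 23.4 (log2 change -1.75, unadjusted p 0.0169, adjusted p = 0.621 in edgeR). Mesothelial markers in early adventitial fibroblasts summed to 218 and 0.0652 CPM in air and 576 and 654 in hyperoxia, and their part was not tested. The test of whether the hyperoxia change differed from that of the alveolar line passed for 0 of 10 genes in the adventitial line (0% of genes), 0 in myofibroblasts (0.013%) and 0 in airway smooth muscle (0.0132%), with 2, 1 and 1 genes at an unadjusted p under 0.05 in edgeR's test, against 6.83%, 5.79% and 4.81% of all genes. Fgfr3 in the adventitial line differed by -1.94 on the log2 scale, with an adjusted p of 0.689. Fgf10 stood at 47.7 and 39.5 CPM in air and 56.7 and 70.6 in hyperoxia, Fgf7 at 79.4 and 73.0 against 106 and 85.2, and Spry1, the other Sprouty here, at 108 and 98.5 against 103 and 93.0, none past the test. By class the Spry1 log2 change was above 0 in 5 of 5, from 0.04 to 0.84, without overlap of mice in 1, the myofibroblasts (177 and 140 against 207 and 287 CPM), and passed in none (adjusted p 0.608 or more). The classes share their mice and runs here too. At the P7 air make-up Spry1 was 113 and 83.9 against 137 and 155 plain CPM. The 55 male hyperoxic fibroblasts, a subtype of the male hyperoxia mouse and all on its second plate, had 224 CPM of Fgfr3, 90.7 of Fgfr4, 87.4 of Fgf10, 129 of Spry2 and 1.44 of Fgf18.

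Other genes of the pathway were taken from 4 lists and tested in the same fits. Over all cells in hyperoxia 0 of 10 other ligands, 0 of 12 feedback and target genes, 0 of 18 receptor partners and heparan sulfate enzymes and 0 of 8 adaptors passed in edgeR's test (0.243% of all genes did). In that test 4, 0, 4 and 3 genes had an unadjusted p under 0.05, against 12.3% of all genes. The median log2 changes were 1.45, -0.04, 0.12 and -0.21, against 0.00246 over all genes. Spry4, Dusp6 and Etv5, which FGF signalling is known to induce, did not pass over all cells. Dusp6 and Etv5 were picked outside the naming rule. Spry4, a Sprouty, was 84.9 and 64.5 CPM in air and 84.6 and 86.7 in hyperoxia, with overlap. Dusp6, a phosphatase of MAP kinase, was 166 and 115 against 176 and 231, without overlap. Etv5, a transcription factor, was 19.7 and 18.8 against 15.0 and 19.8, with overlap. The part of FGF signalling in the Spry2 difference was not tested. Etv4 of the same list was 6.93 and 6.59 CPM in air and 11.8 and 12.2 in hyperoxia, without overlap. Etv1 moved the other way, at 121 and 117 against 105 and 95.2, also without overlap. In myofibroblasts 0 of 11 feedback and target genes passed, 4 had an unadjusted p under 0.05 in edgeR's test (9.04% of all genes did), and the median log2 change was 1.03. Of the genes named for that class, Spry4 was 82.4 and 72.8 CPM in air and 204 and 277 in hyperoxia. Dusp5 was 39.2 and 19.1 against 79.1 and 170.

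From P7 to P21 over all cells, where 9.97% of all genes passed against 0.243% in hyperoxia, 2 of 12 feedback and target genes fell, both ETS transcription factors: Etv1 from 121 and 117 to 35.3 and 56.2 CPM (log2 change -1.40, adjusted p = 0.0105 in edgeR), and Etv4 from 6.93 and 6.59 to 0.327 and 0.0198 (-5.44, adjusted p = 0.0241). None of the 12 rose, and the list's median was 0.12 against 0.03 over all genes. Of 18 partners and heparan sulfate enzymes Sulf2, which trims sulfate from heparan chains, rose (22.7 and 16.5 to 73.9 and 54.5 CPM, adjusted p = 0.0236), and Hs6st1, which adds it, fell (24.6 and 27.3 to 9.65 and 2.96, adjusted p = 0.0266). Among 8 adaptors Gab1 rose (56.1 and 41.3 to 102 and 99.7, adjusted p = 0.0345) and Ptpn11 fell (71.5 and 109 to 39.0 and 38.4, adjusted p = 0.043). The ligands Fgf14 and Fgf16 rose, 2 of 10 tested, from means of 0.0238 and 0.915 to 4.50 and 12.5 CPM (adjusted p 0.0155 and 0.0424), with a list median of 1.52.

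In the steps from E18.5 to P1 and from P1 to P7 none of the 4 lists had a gene past edgeR's test over all cells, where 1.23% and 0.22% of all genes passed. At most 3 genes of a list had an unadjusted p under 0.05 in that test, against 12.2% and 11.1% of all genes. In the myofibroblast line, whose E18.5 cells are precursors and whose P1 cells are mostly myofibroblasts, Spry4 rose from 21.3 and 37.2 CPM at E18.5 to 167 and 233 at P1 (log2 change 2.79, SE 0.359, adjusted p = 0.0111 in edgeR), 1 of 11 feedback and target genes tested there, against 1.44% of all genes. It stood at 82.4 and 72.8 at P7 in air and 204 and 277 in hyperoxia. In the alveolar line Hs6st2, a heparan sulfate enzyme, fell from 36.3 and 15.5 CPM at P7 to 0.0147 and 0.0217 at P21 (adjusted p = 0.0313 in edgeR). It was 1 of 17 genes of its list tested there, against 3.28% of all genes.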

How the data were processed

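The authors deposited 1 table of whole-number read counts per gene and cell, not normalized. Per the submitters' processing notes STAR 2.5.2b and HTSeq 0.10 were used and the build is named as GRCh38, a human build, although the labels give mouse; strand and annotation are not given in the sources used here. Genes were matched by symbol. The 10 genes and the lists were chosen with earlier results of these data known. Counts were summed per mouse and cell class and tested with edgeR 4.0.16 (quasi-likelihood, TMM, filterByExpr, group plus sex) in R 4.3.3, with at least 10 cells per mouse and class. The named genes were all 10 members, up to 4 per pathway list with the smallest adjusted p, and the 3 genes most alike to each member among those with 10 CPM or more in a library. Dusp6 and Etv5 were named outside this rule. Cells were thinned to 100000 reads for shares, which left out 168. Limma 3.58.1 and DESeq2 1.42.0 served as alternatives. Exon lengths came from GENCODE M21 models. On simulated counts with 200 genes changed 4-fold, the all-cell fits recovered 41.5% to 46% of them, at 6 to 16 false calls per comparison, and the fits of single classes 0% to 16%. In the myofibroblast hyperoxia comparison 11 of 43 simulated calls were false.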

Additional observations from a re-analysis of the deposited data

How the results depend on the processing

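Of 34 comparisons, 6 had a member past the threshold. The other 28 had none. The number of members that passed stayed within 1.5 times in 236 of 287 comparisons under another setting and in 241 of 290 without 1 mouse. A count of 0 both times was scored as unchanged, so this tally says little of how stable the calls are. Many of the calls made were lost without 1 mouse, as given above. DESeq2 called more: over all cells 1 from E18.5 to P1, 4 from P1 to P7, 8 from P7 to P21 and 2 in hyperoxia. It also called more of all genes wherever both counts are given above. The counts by setting in this section stand without the share of all genes at that setting. They show how the calls depend on the setting and are no result about the members. By class DESeq2 gave 5 (P7 to P21) and 1 (hyperoxia) in the alveolar line, 1 (P1 to P7), 1 (hyperoxia) and 2 (any age) in the adventitial line, 5, 1, 2 and 3 (E18.5 to P1, P1 to P7, hyperoxia, any age) in myofibroblasts, 2, 1, 1 and 3 (P1 to P7, P7 to P21, hyperoxia, any age) in airway smooth muscle, 1, 2 and 1 (P1 to P7, P7 to P21, hyperoxia) in vascular smooth muscle and 1, 2 and 1 (3 age steps) in pericytes. Limma with equal weight per cell gave 1 (all cells, E18.5 to P1), 2 (hyperoxia) and 2 (alveolar, P7 to P21). Without the sex term there were 2 (all cells, P1 to P7), 3 (alveolar, P7 to P21), 0 (myofibroblast hyperoxia) and 1 (airway, any age). The revised fit of edgeR, chosen after seeing the data, gave over all cells 3 (P1 to P7) and 2 (hyperoxia), and 2 (alveolar, P7 to P21), 1 and 1 (myofibroblasts, E18.5 to P1 and any age) and 1 and 2 (airway, P7 to P21 and any age). Fits of the 4 mice compared alone gave 4 (all cells, P1 to P7), 2 (hyperoxia) and 1 (alveolar, P7 to P21). No filter on low counts gave 2 (all cells, hyperoxia), 1 (myofibroblasts, E18.5 to P1) and 1 (airway, any age). The main sort and run alone, and the male hyperoxia mouse by its first plate alone, gave 2 (all cells, hyperoxia) and 0 (myofibroblast hyperoxia). The subtype Myofibroblast alone also gave 0 in the myofibroblast hyperoxia comparison. Leaving out fibroblast precursors gave 1 (alveolar, E18.5 to P1) and 0 (any age), and DESeq2's size factors in edgeR gave 1 (alveolar, P7 to P21). Without 1 mouse at a time the counts over all cells were 0 to 1 (E18.5 to P1), 0 to 4 (P1 to P7), 0 to 6 (P7 to P21), 0 to 2 (hyperoxia) and 3 to 8 (any age); in the alveolar line 0 to 3 (P7 to P21) and 0 to 3 (any age); 0 to 1 in myofibroblasts (E18.5 to P1, hyperoxia, any age), in airway smooth muscle (any age) and in the tests of the adventitial and myofibroblast hyperoxia changes against the alveolar one. Direction turned in 2 values: Fgf10 in the alveolar line from E18.5 to P1 was 0.53 (adjusted p = 0.723) without fibroblast precursors and -0.68 with them, and Fgf10 in pericytes from P1 to P7, where both P7 mice had 0 reads, ran from -12.98 to 0.50 without 1 mouse (0.50, adjusted p = 1, without the male P1 mouse). The causes were not tested. No paired analysis was possible because the groups compared share no animal and no replicate number. What they share is sex, which is a term of the model. A term for run was not fitted. Counts of 0 in single classes show little: of simulated 4-fold changes 8.5% to 16% were recovered in the alveolar line, 5.5% to 9.5% in the adventitial line, 7% to 16% in myofibroblasts, 1% to 3.5% in airway smooth muscle, 0% to 1% in vascular smooth muscle and 0.5% to 1.5% in pericytes, and in the last 2 most calls were false.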
